A study of Mus musculus with 9 samples.

Results

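The insulin-like growth factor (IGF) system was examined in stromal cells of mouse bone marrow through 10 genes chosen by name: the ligands Igf1 and Igf2, the receptor Igf1r and the binding proteins Igfbp1 to Igfbp7. Each was measured by 1 row (transcript cluster) of the array, so that 10 of the 19938 genes with a row of their own entered. IGFs are small secreted hormones that act through the receptor tyrosine kinase encoded by Igf1r. Binding proteins hold them in the tissue and in plasma, and proteases that cut the binding proteins set them free. In bone, IGFs and their binding proteins are best known as products and regulators of cells of the osteoblast lineage, and Igf1 also acts on developing blood cells.

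The series compared stromal cells, sorted from marrow as negative for CD45 and lineage markers and positive for CD54 (Icam1) and BP1 (Enpep), with unsorted marrow. YFP-positive cells of this gate (3 arrays) came from mice labelled IL7-Cre Transgenic/Rosa-eYFP hetero, in which a Cre transgene under the control of Il7 switches on YFP and marks cells that use or have used Il7, the growth factor of B cell precursors. YFP-negative cells of the gate (1 array, 2300 cells) came from mice of the same genotype. Wild-type cells of the gate (3 arrays) and total marrow (2 arrays, 10 ng of RNA) came from mice without the reporter. All mice were labelled C57Bl/6J young adults, and those used for sorting were 6 to 12 weeks old. The other sorted samples held 1800 to 10000 cells. All RNA was amplified before hybridization to Affymetrix Mouse Gene ST 1.0 arrays. The labels do not say whether replicates were separate animals, so p-values measure the spread between samples, which may be technical. In bulk samples fewer cells of a type and less RNA per cell cannot be told apart.

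Values are log2 signals. Over the 21789 rows with a single gene, the deposited median was 4.51 to 4.60 on 8 arrays and 3.46 on the YFP-negative array. For comparisons with that array all 9 arrays were therefore normalized to each other by cyclic loess, and the others used values as deposited. A row was called where the adjusted p of limma was under 0.05. The median of all values, 4.43 as deposited and 4.53 after cyclic loess, served as a stated cut and not as a detection limit: a difference against a group below it is read as a lower bound, and the size of a difference between groups that both lie below it is not resolved. The sort was checked on the cyclic loess scale. Icam1 lay at 6.02 to 6.70 on the 7 sorted arrays and at 5.09 on both total marrow arrays. Enpep lay at 5.79 to 7.64 on the sorted arrays, with both ends among YFP-positive arrays, and at 3.79 and 3.76 in total marrow. Ptprc, which encodes CD45, lay at 3.54 to 3.86 on the 7 sorted arrays and at 9.62 and 9.70 in total marrow, and all 8 reticular stroma markers (such as Lepr and Cxcl12) stood above the median of all values on every sorted array. Neutrophil markers averaged 6.51, 6.07 and 4.53 on the YFP-positive arrays, 3.84 to 4.71 in wild type, 4.95 on the YFP-negative array and 11.22 on both total marrow arrays; the part of this in the results below was not tested.

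Igf1, Igfbp3, Igfbp4, Igfbp5 and Igfbp7 exceeded their total marrow level by 3.0 to 8.41 log2 units in both YFP-positive and wild-type cells, Igf1r was lower in both, and Igfbp1, Igfbp2 and Igfbp6 were not called in either group. In YFP-positive cells 5 of the 10 members were called higher, where 11.0% of all rows were, and 1 was called lower, where 18.5% were. The median change of the members was 2.05, beside 0.09 over all rows tested. In wild-type cells 6 members were called higher, where 10.4% of all rows were, and 1 lower, where 13.9% were, with a median of 2.61 beside 0.00 over all rows. Both comparisons use the same 2 total marrow arrays.

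**Figure D1:**
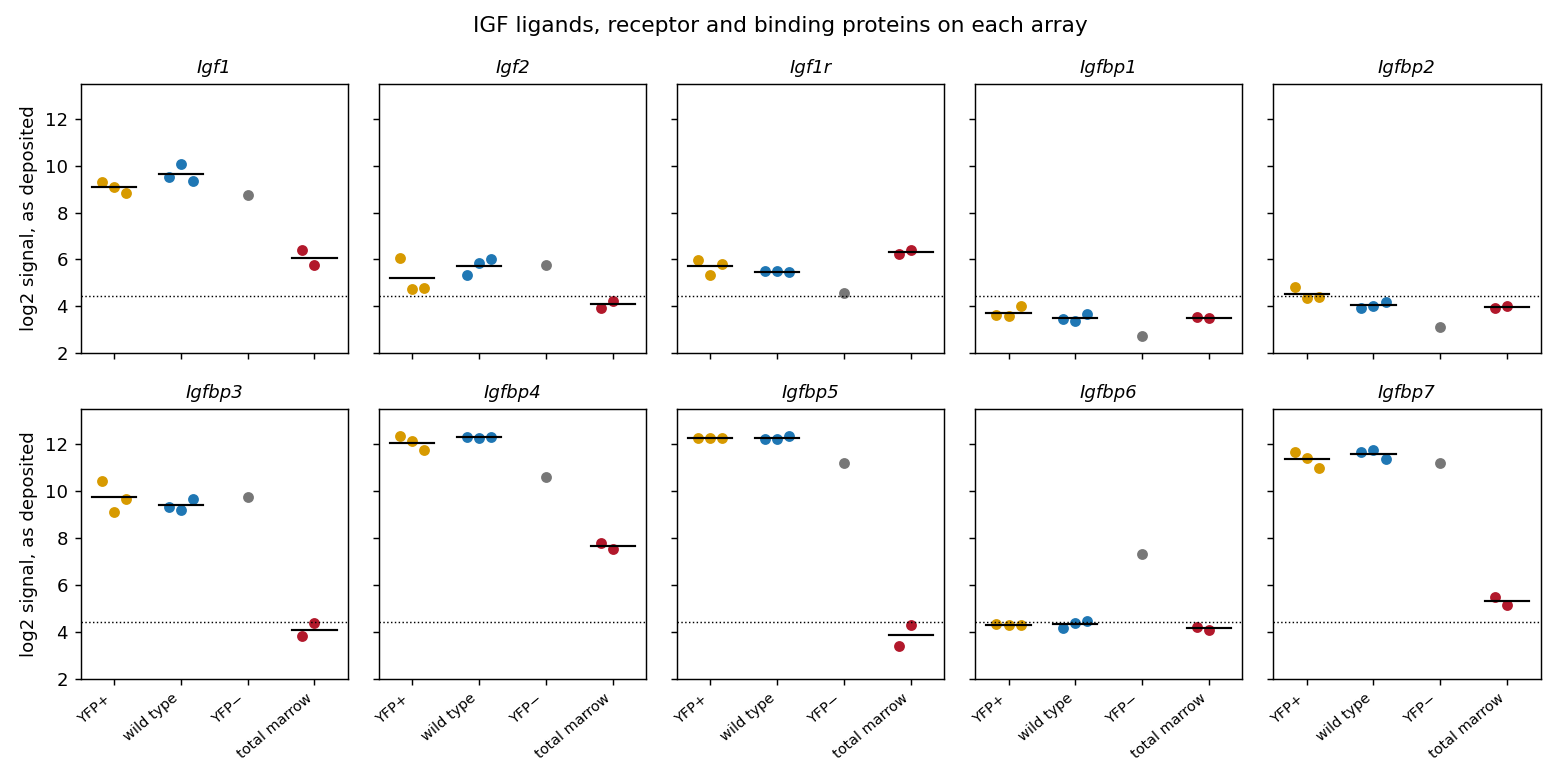
Each panel plots the deposited log2 signal of 1 gene on each array, with 3 YFP-positive (YFP+), 3 wild-type, 1 YFP-negative (YFP−) and 2 total marrow arrays; points are arrays, bars are group means and the dotted line is the median of all values (4.43). Igf1, Igfbp3, Igfbp4, Igfbp5 and Igfbp7 lie higher on all sorted arrays than in total marrow, Igfbp6 is raised on the YFP− array alone, and all YFP− values carry that array's lower overall level.

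Among the ligands, Igf1, the main growth hormone-dependent IGF after birth, had the clearer signal. It stood at 9.28, 9.11 and 8.82 on the YFP-positive arrays, at 9.53, 10.08 and 9.37 on the wild-type arrays and at 6.39 and 5.76 in total marrow. Total marrow was thus not without signal, but every sorted array lay above both marrow arrays. The difference from total marrow was 3.0 ± 0.27 (SE, n = 3 and 2, adjusted p = 0.000118) in YFP-positive cells and 3.58 ± 0.27 (SE, adjusted p = 3.93e-05) in wild-type cells. Macrophages are another known source of Igf1. Over 8 macrophage markers the mean log2 signal after cyclic loess was 7.28 and 6.77 on the total marrow arrays and 3.83 to 4.26 on the sorted arrays. Of these markers 1 to 3 stood above the median of all values on a sorted array and 7 on each marrow array, and Adgre1, Csf1r and C1qa lay below it on all sorted arrays. Mertk ran the other way, at 4.89 to 6.44 on the sorted arrays and 4.02 and 4.22 in total marrow. Cd68 read 4.45 to 5.28 on the sorted arrays and 9.18 and 9.31 in total marrow. C1qc read 4.97 on the YFP-negative array, 3.79 to 4.38 on the other sorted arrays and 8.86 and 8.22 in total marrow. The part of macrophages in the Igf1 result was not tested.

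Igf2, the fetal growth factor, lay closer to the median of all values. It read 6.05, 4.76 and 4.77 on the YFP-positive arrays, 5.32, 5.83 and 6.02 in wild-type cells, and 3.94 and 4.23 in total marrow. YFP-positive replicate 1 had the highest value of these sorted arrays and the other two of its group had the lowest, so the sorted groups overlapped. Against total marrow Igf2 was called in wild-type cells (1.64 ± 0.41, SE, adjusted p = 0.0221) and not in YFP-positive cells (1.11 ± 0.41, SE, adjusted p = 0.0808). The first call was lost without wild-type replicate 2 (adjusted p = 0.0642) or 3 (0.0686) or total marrow replicate 1 (0.150) or 2 (0.0836). Both differences are lower bounds.

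The receptor ran the other way. Igf1r read 5.98, 5.34 and 5.80 on the YFP-positive arrays, 5.50, 5.49 and 5.47 in wild-type cells, and 6.24 and 6.41 in total marrow, so that both marrow arrays lay above all 6 of these sorted arrays. It was lower than in total marrow by 0.84 ± 0.19 in wild-type cells (difference −0.84, SE, adjusted p = 0.0144) and by 0.62 ± 0.19 in YFP-positive cells (difference −0.62, SE, adjusted p = 0.0437). The call in YFP-positive cells held under 2 of 12 alternative settings. It was lost after cyclic loess (−0.47, adjusted p = 0.133) and when YFP-positive replicate 2 (0.0536) or 3 (0.0575) was left out, as was the case for each total marrow replicate (0.124 without number 1 and 0.216 without number 2). The call in wild-type cells was lost without total marrow replicate 1 (0.0598) or 2 (0.110).

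Of the binding proteins, Igfbp5 had the largest increase over total marrow among all 21789 rows in both comparisons. Igfbp5, the binding protein most abundant in bone, read 12.24, 12.27 and 12.25 in YFP-positive cells, 12.21, 12.20 and 12.36 in wild-type cells, and 3.40 and 4.29 in total marrow. The 6 sorted values span less than the gap between the 2 marrow arrays. No upper limit of the signal was set here, so a narrowing of the spread at high signal was not tested. The difference was 8.41 ± 0.24 (SE, n = 3 and 2) in each group, a lower bound, with adjusted p of 2.66e-07 (YFP-positive) and 2.38e-07 (wild type). Because many leading genes lie below the median of all values in total marrow, the order among them is not resolved.

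Igfbp4, which mainly restrains IGF action until it is cut by the protease PAPP-A, read 12.33, 12.12 and 11.75 in YFP-positive cells and 12.30, 12.27 and 12.31 in wild-type cells. Unlike Igfbp5 it also had a clear signal in total marrow, at 7.79 and 7.52. The differences were 4.41 ± 0.18 and 4.63 ± 0.18 (SE; adjusted p = 1.27e-06 and 9.23e-07), and they are measured on both sides.

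Igfbp7, a relative that binds IGFs weakly and is also laid down in vascular basement membranes, read 11.65, 11.40 and 10.98 in YFP-positive cells, 11.67, 11.75 and 11.36 in wild-type cells, and 5.47 and 5.14 in total marrow. Its differences were 6.04 ± 0.22 and 6.28 ± 0.22 (SE; adjusted p = 7.90e-07 and 5.92e-07). Endothelial cells are a known source of Igfbp7. Of 7 endothelial markers 0 stood above the median of all values on any sorted array and 1 on each total marrow array. Their mean was 3.44 to 3.65 on the sorted arrays and 3.87 and 3.95 in total marrow. The part of endothelial cells in the Igfbp7 result was not tested.

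Igfbp3, the main carrier of IGFs in plasma, read 10.41, 9.12 and 9.68 in YFP-positive cells, 9.34, 9.18 and 9.66 in wild-type cells, and 3.80 and 4.38 in total marrow. Its SD among the YFP-positive arrays was 0.65 as deposited and 0.61 after cyclic loess, where that of Igfbp5 was 0.02 and 0.15. The differences of 5.65 ± 0.37 and 5.30 ± 0.37 (SE; adjusted p = 1.64e-05 and 2.23e-05) are lower bounds.

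Igfbp1, a liver product that is under the control of insulin, lay below the median of all values in every group, at 3.60 to 3.99 in YFP-positive, 3.37 to 3.66 in wild-type cells and 3.50 and 3.54 in total marrow. Igfbp2, which carries an integrin-binding site, read 4.84, 4.35 and 4.38 on the YFP-positive arrays, 3.95, 4.03 and 4.21 in wild-type cells, and 3.93 and 4.03 in total marrow. All 3 YFP-positive values lay above the other 5, but the difference from total marrow, 0.55 ± 0.17 (SE, adjusted p = 0.0518), was not called; it was called without YFP-positive replicate 2 (0.0463) or 3 (0.0494). Igfbp6, which prefers Igf2 over Igf1, read 4.27 to 4.32, 4.15 to 4.48 and 4.09 to 4.22 in YFP-positive, wild-type and total marrow samples, all near the median of all values, with differences from total marrow of 0.14 ± 0.13 and 0.18 ± 0.13 (SE).

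**Figure D2:**
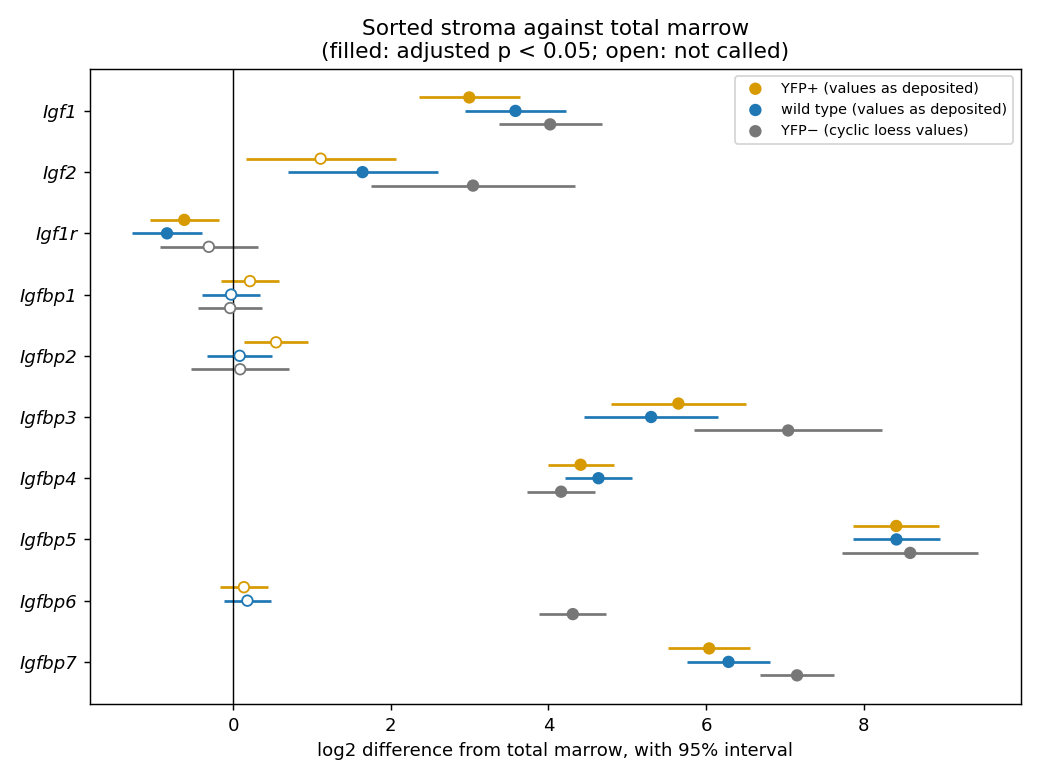
For each gene the log2 difference of YFP-positive (YFP+), wild-type and YFP-negative (YFP−) cells from total marrow is plotted with its 95% interval from limma; filled points were called. The intervals of Igfbp5 lie farthest right (8.41, 8.41 and 8.59), and Igfbp6 separates the YFP− array (4.31) from the other sorted groups (0.14 and 0.18).

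Members that are neighbours in the genome did not share their level. In the reference gene table (GRCm38.p6), Igfbp2 and Igfbp5 are neighbours on chromosome 1, and Igfbp1 and Igfbp3 are neighbours on chromosome 11, with no other protein-coding gene between them. In each pair 1 gene was among the highly different members (Igfbp5, Igfbp3) and the other was not called against total marrow in either group (Igfbp2, Igfbp1).

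The promoters of the members called higher in both groups are shown because these 5 genes share that call, with that of Igfbp6 for contrast. Each line gives 80 bases before and 20 bases after the start site in RefSeq's GRCm38.p6 annotation, on the gene's strand; all 10 members had an entry. Capitals mark matches to the TATA motif TATANA on either strand, where N is any base.
Igf1, chr10:87861031-87861130, plus strand: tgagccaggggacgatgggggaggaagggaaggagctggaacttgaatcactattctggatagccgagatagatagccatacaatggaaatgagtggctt
Igfbp3, chr11:7213904-7214003, minus strand: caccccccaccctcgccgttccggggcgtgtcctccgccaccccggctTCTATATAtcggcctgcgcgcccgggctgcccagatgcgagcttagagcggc
Igfbp4, chr11:99041164-99041263, plus strand: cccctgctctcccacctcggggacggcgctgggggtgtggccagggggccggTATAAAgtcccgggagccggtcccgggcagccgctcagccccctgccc
Igfbp5, chr1:72874846-72874945, minus strand: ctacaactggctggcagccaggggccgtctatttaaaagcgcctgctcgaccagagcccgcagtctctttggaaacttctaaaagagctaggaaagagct
Igfbp7, chr5:77408026-77408125, minus strand: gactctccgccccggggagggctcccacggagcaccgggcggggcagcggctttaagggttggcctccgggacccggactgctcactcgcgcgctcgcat
Igfbp6, chr15:102144106-102144205, plus strand: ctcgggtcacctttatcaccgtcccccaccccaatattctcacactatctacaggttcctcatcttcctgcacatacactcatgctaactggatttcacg

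These promoters differ from each other in composition. In the full window of 300 bases (250 before and 50 after the start), Igfbp3, Igfbp7 and Igfbp4 held 37, 33 and 27 CpG dinucleotides, and Igfbp5, Igfbp6 and Igf1 held 10, 8 and 6, beside a median of 7 over 32851 mouse promoters. TATANA was found close to the start site in Igfbp3 (overlapping matches from base −32 to −25) and Igfbp4 (−28 to −23), and farther out in Igfbp6 (−148 to −141); 24.7% of all promoters hold it. The GC box GGGCGG had 4 matches in Igfbp7 and 0 in the other 5, and 35.7% of all promoters hold it. Neither the STAT motif TTCNNNGAA (8.30% of all promoters) nor the palindromic EBF motif (0.904%) was found in any of the 6. All motifs were searched on both strands, overlapping matches counted. A match is a description and not a site.

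The rows nearest to each of the 5 members were found among the 21789 rows with a single gene, with predicted genes (Gm and Rik names) left out. Nearness was the root mean square distance between differences from the total marrow mean over the 7 sorted arrays (cyclic loess values). A near row must therefore have a difference of similar size, and the members were chosen by that difference. Nearness does not by itself show a shared pattern among the sorted arrays. Igfbp5 (mean difference 8.86) was nearest to the complement inhibitor Serping1 (8.38, distance 0.52), Cyp1b1 (8.27, distance 0.65) and the leptin receptor Lepr (8.19, distance 0.70). Igfbp7 (6.71) was nearest to Dpep1 (distance 0.16), the chemokine Cxcl14 (0.28) and Fmo1 (0.28). Igfbp3 (6.00) was nearest to the myelin gene Pmp22 (0.25), Slc26a7 (0.33) and Mxra8 (0.37), and Igfbp4 (4.94) to Dlg5 (0.23), Plxna2 (0.24) and the laminin chain Lamc1 (0.26). Igf1 (3.71) was nearest to Mpped2 (0.13), Cd302 (0.22) and Ctnnd1 (0.25).

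The comparison of YFP-positive with wild-type cells set cells marked by the reporter against the gate as a whole. These groups also came from mice of different genotype, so reporter status and genotype cannot be told apart. No member was called, and limma called 0 of 21789 rows (0%; smallest adjusted p = 0.0680, with 3250 rows at an unadjusted p under 0.05). The 95% interval of the difference bounds what these arrays allow. It was −0.49 to 0.49 for Igfbp5, −0.60 to 0.15 for Igfbp4, −0.71 to 0.22 for Igfbp7 and −0.42 to 1.11 for Igfbp3. Igf1 was lower in all 3 YFP-positive arrays than in all 3 wild-type arrays (−0.59, 95% interval −1.16 to −0.02, adjusted p = 0.332), and Igfbp2 was higher in all 3 (0.46, 95% interval 0.10 to 0.83, adjusted p = 0.291). Igf2 had the widest interval, −1.38 to 0.32, and Igf1r and Igfbp6 had intervals of −0.18 to 0.61 and −0.32 to 0.23. After cyclic loess the difference of Igf1 was −0.31 (adjusted p = 0.596) and that of Igfbp2 was 0.36 (95% interval −0.06 to 0.77, adjusted p = 0.528), with overlapping groups for both.

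The YFP-negative array was set against the other sorted groups to ask how gated cells without the reporter differ. This array did not lack Il7 signal. After cyclic loess Il7 read 7.03 on it, within the 6.49 to 7.78 of YFP-positive cells and below the 7.32 to 7.78 of wild-type cells. Igfbp6 was higher and Igfbp4 lower in YFP-negative cells than in both groups, and these were the only members called. That is 1 member higher, where 2.62% of all rows were called higher against YFP-positive and 3.0% against wild-type cells, and 1 member lower, where 1.36% and 1.57% were. The median change of the members was 0.33 and 0.36, beside 0.00 over all rows in both. With a single YFP-negative array, the fit lends it the spread of the replicated groups. Any batch that this array alone formed cannot be told apart from its cell type. Against wild-type cells, the difference in genotype cannot be told apart from cell type either.

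Igfbp6 read 8.46 on the YFP-negative array after cyclic loess, against 4.30, 4.23 and 4.20 on the YFP-positive arrays, 4.09, 4.33 and 4.50 in wild-type cells, and 4.21 and 4.09 in total marrow. It was thus near the median of all values on 8 arrays and far above it on 1. The difference was 4.22 ± 0.17 (SE, n = 1 and 3, adjusted p = 0.000208) from YFP-positive and 4.15 ± 0.17 (SE, adjusted p = 0.000233) from wild-type cells, both lower bounds. As deposited, where most rows are lower on this array, Igfbp6 still read 7.30, with a difference of 3.01 from YFP-positive and 2.97 from wild-type cells. The call held under all 11 alternative settings in each comparison, with an adjusted p of at most 0.0191.

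Some markers of other cell types also read higher on the YFP-negative array than on the other sorted arrays. The fibroblast list was written with earlier results of these data known. All 4 of its measured markers (Dpt, Pi16, Cd34 and Clec3b) stood above the median of all values on the YFP-negative array. Of these markers 0 stood above it on each YFP-positive array, 0, 0 and 1 on the wild-type arrays and 2 on each total marrow array. Their mean was 5.93 on the YFP-negative array, 3.66 to 3.85 in YFP-positive, 3.62 to 4.38 in wild-type cells, and 4.85 and 4.99 in total marrow. Dpt, which encodes the matrix protein dermatopontin, read 7.71 on the YFP-negative array and 3.06 to 3.92 in YFP-positive cells. In wild-type cells Dpt read 3.32, 3.98 and 5.41, and in total marrow 3.07 and 3.13. Pi16 read 4.86 on the YFP-negative array and 6.62 and 5.80 in total marrow. Cd34 read 6.51 and Clec3b 4.65 on the YFP-negative array, against 6.31 and 6.36 (Cd34) and 3.99 and 4.11 (Clec3b) in total marrow. Genes of other marker lists moved as well. The B lineage, megakaryocyte and endothelial lists also had their highest mean among sorted arrays on the YFP-negative array (4.65, 4.14 and 3.65). On the other sorted arrays these means reached at most 4.56, 3.97 and 3.57. Among sorted arrays, Rgs5 (7.06) and Ibsp (12.50) were highest on the YFP-negative array, and Foxc1 (8.85) and Pdgfra (9.06) were lowest. The part of fibroblasts in the Igfbp6 result was not tested. The reticular stroma markers averaged 10.55 on the YFP-negative array, within the 10.36 to 10.84 of the other sorted arrays.

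**Figure D3:**
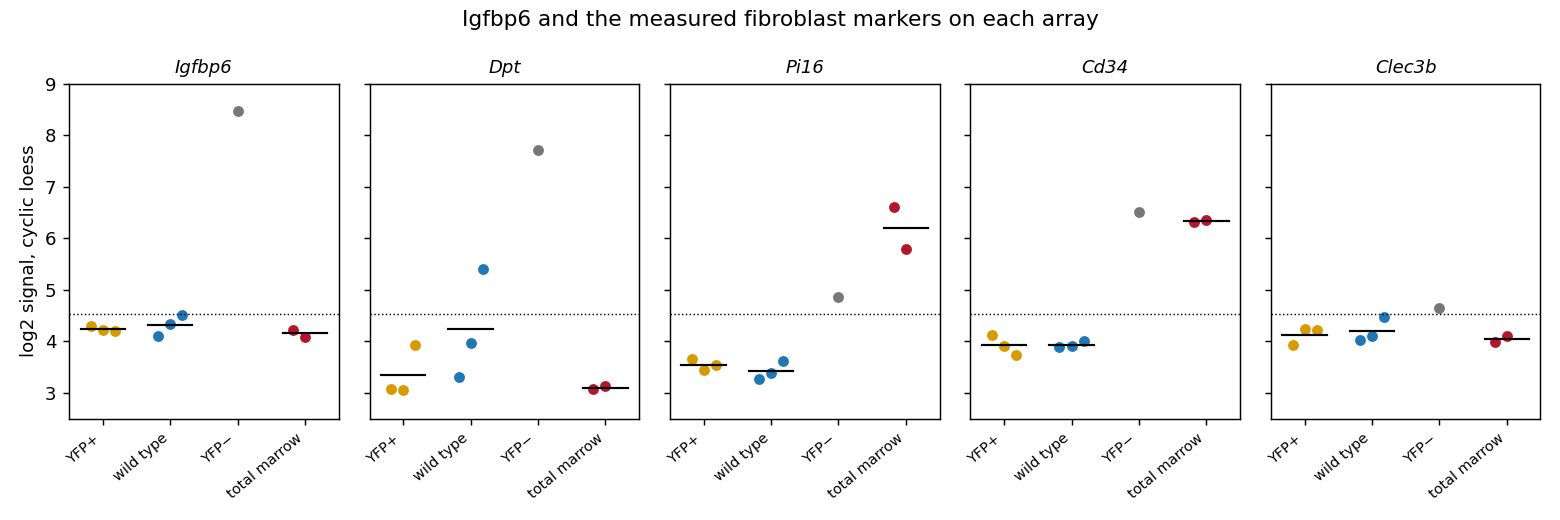
The log2 signal after cyclic loess is plotted for Igfbp6 and 4 fibroblast markers on each array; points are arrays, bars are group means and the dotted line is the median of all values (4.53). Igfbp6 (8.46) and Dpt (7.71) stand highest on the YFP-negative (YFP−) array, whereas Cd34 and Pi16 are also present in total marrow.

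Igfbp4 moved the other way. After cyclic loess it read 11.12 on the YFP-negative array, below all YFP-positive (12.19, 12.11 and 11.91) and wild-type values (12.00, 11.86 and 12.14). The difference was −0.94 ± 0.17 (SE, adjusted p = 0.0337) from YFP-positive and −0.87 ± 0.17 (SE, adjusted p = 0.0401) from wild-type cells. The first call was lost without YFP-positive replicate 1 (adjusted p = 0.0510) or 2 (0.0613), and the second without any 1 of the wild-type replicates (0.0942, 0.0700 and 0.0881). With each array centred on its median, both calls were lost (−0.35, adjusted p = 0.344, and −0.61, adjusted p = 0.104).

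The other members were not called against either group. Igf2 read 7.02 on the YFP-negative array, above every other sorted array (4.70 to 6.00), with a difference of 1.86 ± 0.52 (SE, adjusted p = 0.0956) from YFP-positive and 1.41 ± 0.52 (SE, adjusted p = 0.170) from wild-type cells. The first was called without YFP-positive replicate 1 (2.28, adjusted p = 0.0207), the array with the highest Igf2 of that group. Igfbp3 at 10.61 lay above all 6 other sorted values too (difference 0.90 and 1.53, adjusted p = 0.327 and 0.121), as did Igfbp7 at 11.83 (0.49 and 0.54, adjusted p = 0.183 and 0.152). Igf1 read 9.56, beside 8.96 to 9.13 in YFP-positive and 9.12 to 9.67 in wild-type cells. Igfbp5 at 11.79 differed by −0.46 and −0.17 and Igf1r at 5.83 by 0.16 and 0.51, with 95% intervals that include 0. On the values as deposited, Igf1r, Igfbp1, Igfbp2 and Igfbp5 were called lower in YFP-negative cells against both groups and Igf1 against wild type. On that scale 75.4% of all rows were called lower and 0.464% higher against YFP-positive cells, and 74.7% lower and 0.335% higher against wild-type cells.

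**Figure D4:**
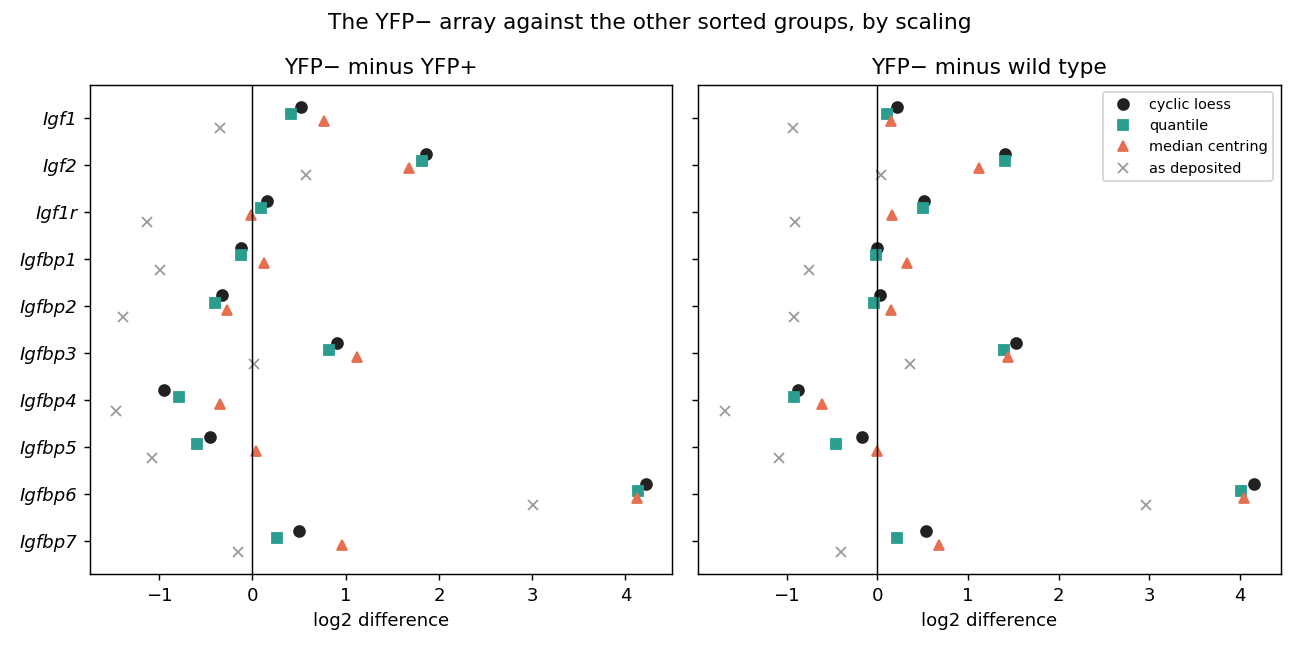
The log2 difference of the YFP-negative (YFP−) array from YFP-positive (left) and wild-type cells (right) is plotted for each gene under 4 scalings of the same values. Igfbp6 lies at 2.97 to 4.22 under all of them and Igfbp4 below 0 under all of them, whereas the deposited values (crosses) shift every gene to the left.

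Against total marrow, 7 members were called higher in YFP-negative cells, where 13.0% of all rows were, and 0 lower, where 13.2% were. The median change of the members was 4.09, beside 0.00 over all rows. Igfbp5 (8.59 ± 0.37, SE), Igfbp7 (7.15 ± 0.20), Igfbp3 (7.04 ± 0.51), Igfbp6 (4.31 ± 0.18), Igfbp4 (4.16 ± 0.18), Igf1 (4.02 ± 0.28) and Igf2 (3.04 ± 0.55) were higher, with adjusted p from 1.16e-06 to 0.00587. Igf1r differed by −0.31 ± 0.27 and was not called, and Igfbp1 and Igfbp2 lay below the median of all values in both groups. On the values as deposited the same 7 were higher, where 4.05% of all rows were, and Igf1r, Igfbp1 and Igfbp2 were called lower, where 67.9% were. Placed in order on the cyclic loess scale, Igf1 ran from total marrow (mean 5.54) to YFP-positive (9.04), wild-type (9.35) and YFP-negative cells (9.56), and Igf2 from total marrow (3.98) to YFP-positive (5.16), wild-type (5.61) and YFP-negative cells (7.02). For both ligands no step between neighbouring sorted groups was called on that scale. As deposited, Igf1 in YFP-negative cells (8.73) lay below YFP-positive (9.07) and wild-type cells (9.66). Igf2 on that scale read 5.76 in YFP-negative and 5.72 in wild-type cells. The place of YFP-negative cells in the order thus depends on the scaling and rests on 1 array.

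The other genes of the pathway were followed through a list of 32, of which 29 had a row with a single gene. Against total marrow, 9 of 29 were called higher in YFP-positive cells, where 11.0% of all rows were, and 2 lower, where 18.5% were, with a median of 0.40 beside 0.09 over all rows. In wild-type cells 14 were called higher (10.4% of all rows) and 1 lower (13.9%), with a median of 0.79 beside 0.00. In YFP-negative cells 11 were called higher (13.0% of all rows) and 0 lower (13.2%), with a median of 0.51 beside 0.00. Of the 7 carriers and proteases of binding proteins, 2, 4 and 3 were called higher in YFP-positive, wild-type and YFP-negative cells. Of the 5 genes of the growth hormone axis, 3, 4 and 2 were called higher, and the median of these 5 was 1.33, 2.11 and −0.37. Of the 8 receptors and adaptors, 3, 5 and 5 were called higher and 1, 1 and 0 lower. Of the 7 measured signalling genes 1 was called higher in each group, and 1 lower in YFP-positive cells. Without total marrow replicate 1 the wild-type count fell from 15 to 8.

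Pappa, which encodes PAPP-A, the protease that cuts Igfbp4 and Igfbp5, was higher by 6.47 ± 0.26 (SE) in YFP-positive, 6.14 ± 0.26 in wild-type and 6.90 ± 0.31 in YFP-negative cells than in total marrow (adjusted p = 1.25e-06, 1.55e-06 and 5.63e-06). As deposited it read 10.48, 9.51 and 9.72 on the YFP-positive arrays, 9.54, 9.57 and 9.58 in wild-type cells, and 3.52 and 3.33 in total marrow. Htra1, a secreted serine protease that also cuts binding proteins, was higher by 5.21, 5.02 and 5.16 (SE 0.19, 0.19 and 0.27). These differences are lower bounds.

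The growth hormone receptor gene Ghr was higher by 6.38 ± 0.15, 6.73 ± 0.15 and 6.70 ± 0.20 (SE) in the 3 sorted groups, with adjusted p of 1.73e-07, 1.22e-07 and 1.38e-06. As deposited it read 9.82 to 9.93 in YFP-positive, 10.09 to 10.50 in wild-type cells, and 3.48 and 3.54 in total marrow. Socs2, a feedback inhibitor of growth hormone signalling that was singled out after its values were seen, was higher by 4.02, 4.57 and 4.04, and its second row was called in the same direction in all 3. Ghr, like Pappa and Htra1, was not called between any sorted groups on the values used for each comparison.

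Irs1, an adaptor that carries the signal from the IGF and insulin receptors, was higher by 4.93 ± 0.25, 5.24 ± 0.25 and 4.62 ± 0.32 (SE), and its second row was called higher as well. The adaptor Grb2 was lower in YFP-positive (−1.48 ± 0.26, SE, adjusted p = 0.00416) and wild-type cells (−1.40 ± 0.26, SE, adjusted p = 0.00576; 0.0556 without total marrow replicate 1). The kinase gene Akt2 was lower in YFP-positive cells (−1.59 ± 0.34, SE, adjusted p = 0.0103; 0.0656 and 0.0672 without total marrow replicate 1 or 2), and its second row was not called (−1.26, adjusted p = 0.126).

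Between YFP-negative and the other sorted cells few pathway genes were called. Against YFP-positive cells 2 of 29 were higher, where 2.62% of all rows were, and 1 was lower, where 1.36% were. Against wild-type cells 1 was higher, where 3.0% of all rows were, and 1 was lower, where 1.57% were. Insr, the insulin receptor gene, was higher on 1 of its 2 rows (2.31, adjusted p = 0.0462, and 2.37, adjusted p = 0.0415). Its other row pointed the other way and was not called (−0.72, adjusted p = 0.0997, and −0.51, adjusted p = 0.199), so the rows disagree. The Insr call was lost without YFP-positive replicate 2 (0.0772) or 3 (0.0595) and without any 1 wild-type replicate (0.0592 to 0.0836). Akt2 was higher against YFP-positive cells only (2.21, adjusted p = 0.0442; 0.0507 and 0.0527 without YFP-positive replicate 1 or 3), and its second row was not called (1.34, adjusted p = 0.274). Stat5b, a transcription factor downstream of the growth hormone receptor, was lower (−1.67, adjusted p = 0.0201, and −1.56, adjusted p = 0.0229); the second call was lost without any 1 wild-type replicate (0.0508 to 0.0602). Without YFP-positive replicate 3 the count against YFP-positive cells fell from 3 to 1, and without any 1 wild-type replicate 0 were called against wild type.

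**Figure D5:**
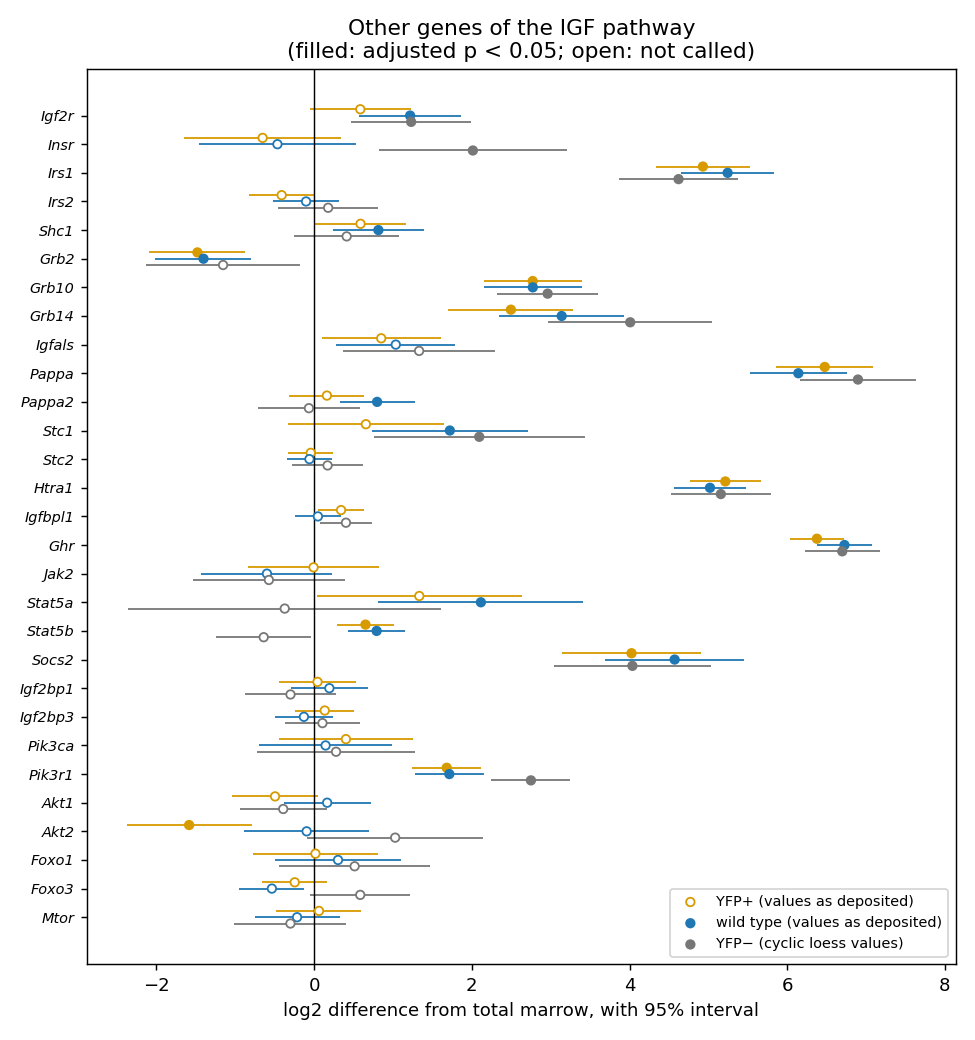
The log2 difference from total marrow is plotted for the 29 measured genes of the pathway list with its 95% interval, in YFP-positive (YFP+), wild-type and YFP-negative (YFP−) cells; filled points were called. Pappa, Ghr, Htra1, Irs1 and Socs2 lie at 4.02 to 6.90 in all 3 groups, while the signalling genes from Pik3ca to Mtor lie mostly around 0.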

How the data were processed

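The deposited file holds log2 signals, 1 per transcript cluster and array, for 9 arrays; per the submitters' processing notes the tools were Affymetrix Expression Console 1.3.1 and RMA, a method of background correction, quantile normalization and probe summary. The genome build is not given in the sources used here, so no array coordinates were used. Of 35556 rows, 21789 pair with exactly 1 gene symbol in the platform annotation and were tested; 1621 with several and 12146 with none were left out. Symbol and Entrez identifier matched the reference gene table for all 10 members.

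All 9 arrays entered 1 limma fit (limma 3.58.1, R 4.3.3; a mean per group, eBayes with defaults, 5 residual and 2.50 prior degrees of freedom as deposited and 2.27 after cyclic loess). Tests were two-sided, with Benjamini-Hochberg adjustment over all rows. For genes with several rows the row with the highest mean was counted. Pathway genes were named as the 4 largest called changes in each direction without overlap of the groups. The 3 nearest rows, predicted genes left out, were named for each member called higher in both groups. The number of arrays limits the precision. Members, lists and scalings were chosen with earlier results of these data known, and the motifs after the promoters had been read. Alternatives were other scalings (as deposited, quantile, median centring), filters, variance models, array weights, the replicate number as a block, and leaving out single arrays.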

Additional observations from a re-analysis of the deposited data

How the results depend on the processing

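The calls of Igf1, Igfbp3, Igfbp4, Igfbp5 and Igfbp7 against total marrow, in YFP-positive, wild-type and YFP-negative cells, held under every alternative run, and so did the 3 calls of Igfbp6 in YFP-negative cells. Depending on the scaling, counts against the YFP-negative array moved most. On values as deposited, 6 members were called against YFP-positive and 7 against wild type (2 and 2 after cyclic loess), and 22, 22 and 20 pathway genes against YFP-positive, wild type and total marrow. Among differences called on at least 1 of the scales, those values turned the sign of Igf1 (−0.93), Igf1r (−0.91), Igfbp2 (−0.93), Htra1 (−1.27) and Grb2 (−1.21) against wild type, of Igf1r (−1.13) and Grb2 (−1.14) against YFP-positive and of Igfbp2 (−0.84) against total marrow. Uncalled differences that turned included Igfbp7 (−0.40 against wild type and −0.15 against YFP-positive), Igf1 (−0.34 against YFP-positive) and Pappa (−0.63 against wild type); the median of all rows there was −0.91, −0.88 and −0.85. Median centring left 1 member called against each sorted group and 6 pathway genes against wild type. The filter on dim rows left 1 member in each. With all rows of the file adjusted together, 1 member was called against wild type and 1 pathway gene against each. Array weights gave 4 pathway genes against wild type. Apart from the deposited values, the cause of these changes was not tested.

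With the replicate number as a block, 1 member and 0 pathway genes were called in YFP-negative cells against each sorted group, Igfbp4 being the member lost; Igf1r in YFP-positive cells (adjusted p = 0.0912) and Igf2 in wild-type cells (0.0699) were no longer called against total marrow. No pairing by number was seen. Deviations of same-numbered YFP-positive and wild-type arrays correlated at −0.06, −0.03 and −0.01, and YFP-positive replicate 1 correlated best with wild-type replicate 2 (0.16). With so few arrays in a group, these correlations cannot exclude a pairing. Leaving out single arrays gave 1 to 2 members and 1 to 3 pathway genes against YFP-positive, 1 to 1 members and 0 to 0 pathway genes against wild type, and 8 to 13 pathway genes in wild-type cells against total marrow. Every member has a single row, so another row could not be tried.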
